A study of Rattus norvegicus with 12 samples.

Results

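MiR-9 was read by 1 of the 375 microRNA (miRNA) assays of a TaqMan rodent card in 12 samples of rat medial entorhinal cortex (MEC). It was chosen by the difference between stellate and non-stellate samples: once each sample was centred on the median of its miRNAs, miR-9 was lower in the stellate sample in 5 of 5 pairs, against the direction of most other neuron miRNAs. The values of that difference are therefore given as a description, without a test. The study compared stellate cells, hippocampus-projecting principal neurons of layer II, with the remaining cells of MEC to find miRNAs particular to them. All animals were Long Evans rats. Stellate samples (n = 5) held DiO-positive cells, sorted by fluorescence at P4/P5 after the dye DiO had been injected by iontophoresis on both sides into the dentate gyrus at P2. Non-stellate samples (n = 5) held the DiO-negative cells of such dissociated cortices, neurons and non-neuronal cells alike. Tissue samples (n = 2) were whole dissected MEC from P23 rats, kept in RNAlater and not sorted. The dye marks cells by where their axons end, cells of both hemispheres were pooled, and the number of pups behind a sample is not given in the sources used here. Non-stellate 3 and 5 carry a description that conflicts with their title, fluorescence and cell type, and they were kept in the group that these 3 labels name.

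MiRNAs are short RNAs that lower the output of mRNAs whose untranslated regions pair with bases 2 to 8 of the miRNA, the seed. MiR-9 is enriched in the brain of vertebrates, where neural progenitors and neurons both express it. It is known to restrain the progenitor factors Tlx (Nr2e1) and Hes1 and to act in a feedback loop with REST, a repressor of neuronal genes. The other arm of the same hairpins, long called miR-9*, targets the REST partner CoREST.

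The rat genome holds 3 miR-9 hairpins, and the mature 5′ arm is the same at each, so that the assay cannot tell the 3 genes apart. They are printed here, from RefSeq on GRCr8, because the single assay sums over all of them; the capitals mark the mature miR-9, which starts at base 16 of each hairpin.
Mir9-1, chr2:175974971-175975059, plus strand: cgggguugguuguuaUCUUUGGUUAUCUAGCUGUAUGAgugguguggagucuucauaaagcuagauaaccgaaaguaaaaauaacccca
Mir9-2, chr2:15933292-15933378, plus strand: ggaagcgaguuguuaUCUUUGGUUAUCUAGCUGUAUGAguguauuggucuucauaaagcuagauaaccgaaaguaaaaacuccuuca
Mir9-3, chr1:142849400-142849489, plus strand: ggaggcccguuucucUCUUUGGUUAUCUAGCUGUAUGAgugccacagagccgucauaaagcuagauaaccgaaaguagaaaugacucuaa

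By position, Mir9-1 lies within the lncRNA gene LOC100911992, Mir9-2 within Mir9-2hg, annotated as protein coding, and Mir9-3 within the lncRNA gene Mir9-3hg. Each hairpin also overlaps a miRNA gene on the opposite strand, Mir3597-1, Mir3597-2 or Mir3597-3, which gives miR-9b. In the mature sequences below, the capitals mark the seed. Among 693 names of rat mature miRNAs, miR-9 was the 1 with its seed. Aligned without gaps, 17 of the 19 bases of miR-9b-5p matched miR-9, and whether the assay reads miR-9b as well was not tested. The card held 0 assays named for miR-9*, miR-9-3p or miR-9b.
rno-miR-9a-5p (the miR-9 of the card): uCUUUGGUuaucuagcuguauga
rno-miR-9a-3p (the other arm): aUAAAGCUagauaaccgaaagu
rno-miR-9b-5p (opposite strand): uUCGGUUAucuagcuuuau

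MiR-9 is compared below with miRNAs of mature neurons. These were miR-124, miR-128a, miR-138, miR-129-3p and miR-129-5p, the last 2 being opposite arms of shared hairpins. All 5 were determined in all 12 samples, and the seeds shown differ from that of miR-9 and from each other. MiR-124 is named only.
rno-miR-128-3p (miR-128a on the card): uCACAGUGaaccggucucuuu
rno-miR-138-5p (miR-138): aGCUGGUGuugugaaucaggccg
rno-miR-129-2-3p (miR-129-3p): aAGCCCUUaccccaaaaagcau
rno-miR-129-5p (miR-129-5p): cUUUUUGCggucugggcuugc

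A card reports the cycle threshold (Ct), the PCR cycle at which a well passes a fixed signal, so that a lower Ct stands for more template on a log2 scale. Of the 375 miRNA assays, 203 to 241 gave a Ct in non-stellate samples, 234 to 260 in stellate samples and 292 to 302 in tissue. The median Ct over the 176 miRNAs determined in every sample was 28.4 ± 0.636 (SD, n = 5) for stellate cells, 29.6 ± 0.941 (SD, n = 5) for non-stellate cells and 23.7 in each tissue sample. All miRNAs together were thus read earlier in stellate than in non-stellate cells, and far earlier in tissue. To set this aside, 2 log2 scales were used. The U6-scaled level is the mean Ct of the 4 wells of U6, a small nuclear RNA, minus the Ct of the miRNA, and the median-centred level is the median Ct of those 176 miRNAs minus the Ct of the miRNA. The 4 U6 wells of a sample varied with a pooled SD of 0.366 cycles, which gives 0.518 for a difference between single wells.

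The raw Ct of miR-9 was 20.38, 20.22, 22.13, 20.89 and 19.38 in stellate 1 to 5. In non-stellate 1 to 5 it was 20.32, 20.53, 22.19, 19.99 and 22.02. The tissue samples read 15.35 and 15.33. The sorted groups overlapped over nearly their whole range, and both tissue samples were read about 4 cycles or more before any sorted sample.

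MiR-9 had the earliest Ct of all determined miRNAs in 8 of 12 samples and the second earliest in the other 4, all of them non-stellate. The wells ahead of it were miR-874 at Ct 14.7 in non-stellate 1, miR-684 at 19.8 in non-stellate 2, and miR-155 at 11.3 and 11.7 in non-stellate 3 and 5. The next miRNA after miR-9 was let-7c in 9 of the 10 sorted samples. It followed miR-9 by 0.326 to 0.971 cycles in stellate samples and by 0.524 to 1.46 cycles in non-stellate 1 to 4, while in non-stellate 5 the next was miR-17, 1.41 cycles later. In tissue A and B the next were miR-218 and miR-328, 2.72 and 2.87 cycles later. Ct values of different assays are not calibrated against each other, so this order is that of the readings and not of molecules.

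The median-centred level of miR-9 was 7.79, 7.83, 7.38, 7.36 and 8.58 in stellate 1 to 5. In non-stellate 1 to 5 it was 8.55, 8.45, 8.07, 8.97 and 8.92, and in the tissue samples it was 8.36 and 8.36. The group means were 7.79 ± 0.50 (SD, n = 5) for stellate and 8.59 ± 0.37 (SD, n = 5) for non-stellate cells. Stellate 5 stood above non-stellate 1, 2 and 3, so that the groups overlapped, and the other 4 stellate samples stood below every non-stellate sample and both tissue samples. In bulk samples, fewer cells that express a miRNA and less of it per cell cannot be told apart.

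Within pairs of the same replicate number, the median-centred level differed by -0.76, -0.62, -0.69, -1.60 and -0.34 in pairs 1 to 5, stellate minus non-stellate, with a mean of -0.80 and an SD of 0.48. Pair 4 gave the largest difference. The SD of a difference between single wells was 0.518 cycles, and 4 of the 5 differences were under 2 such SDs (1.04), with pair 5 under 1. Of 222 tested assays 27 were lower in all 5 pairs on this scale, a background of 12.2%, and 26 were higher in all 5, or 11.7%. With U6 scaling, 2 were lower in all 5 pairs (0.901%), miR-98 and miR-322, and 24 were higher (10.8%), so the balance of these counts depends on the scale. MiR-98 is named here after its values were seen. After median centring miR-9 was 16th among the 27 by its mean. No count is read from this for miR-9, since the direction chose it.

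The U6-scaled level of miR-9 was -3.56, -2.07, -3.10, -3.02 and -2.88 in stellate 1 to 5. In non-stellate 1 to 5 it was -2.24, -2.80, -4.26, -1.50 and -1.78. The pairs then differed by -1.32, 0.73, 1.16, -1.52 and -1.09, with a mean of -0.41 and an SD of 1.25. MiR-9 was thus lower in stellate cells in 3 of 5 pairs on the scale of the study, and pairs 2 and 3 ran the other way.

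The direction depended on what miR-9 was set against. It was lower in 5 of 5 pairs against the mean of the determined miRNAs, with a mean difference of -0.74, and against the median of the 20 miRNAs with the lowest mean Ct, with -0.92. Against the other reference RNAs, which are single wells, the mean difference was -0.31 for snoRNA135, 0.38 for snoRNA202, -0.42 for U87 and -0.10 for Y1, with miR-9 lower in 3, 1, 2 and 4 of 5 pairs. Without any scaling, raw Ct with its sign turned gave a mean difference of 0.41, with miR-9 lower in 2 of 5 pairs. Quantile normalization, which also sets miR-9 against the other miRNAs of a sample but by rank alone, gave a mean difference of 2.6 with miR-9 lower in 0 of 5 pairs. By rank miR-9 was first in each stellate sample and second in 4 non-stellate samples, each behind a single early well. MiR-9 was therefore lower in stellate cells relative to the mean or median level of the miRNAs, and not on each scale.

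**Figure D1:**
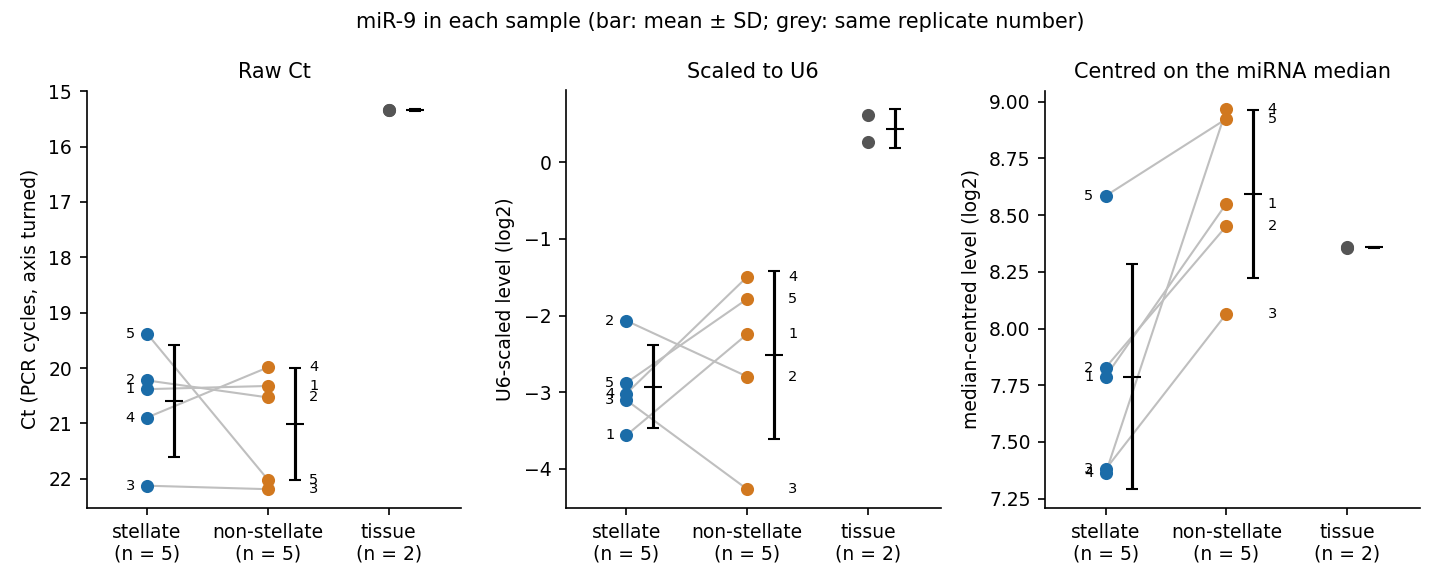
MiR-9 in each of the 12 samples as raw Ct in PCR cycles (left, axis turned so that more is up), U6-scaled level in log2 (middle) and median-centred level in log2 (right), with numbers for replicates, grey lines between samples of the same number, and bars for mean ± SD. All 5 grey lines rise from stellate to non-stellate on the right, where the means are 7.79 and 8.59, 3 of 5 rise in the middle, and the tissue samples stand apart on the left and in the middle but lie at 8.36, between the means of the sorted groups, on the right.

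The neuron miRNAs formed the contrast for which miR-9 was picked. MiR-138, a miRNA of dendritic spines, was higher in stellate cells in 5 of 5 pairs after median centring, by 1.30 on average (SD 0.54). MiR-128a, a neuronal miRNA that acts on excitability, was higher in 5 of 5 pairs by 0.99 (SD 0.37). MiR-124, a miRNA of differentiated neurons, was higher in 4 of 5 pairs by 0.57 (SD 0.53), and pair 4 gave -0.21. MiR-129-3p was higher in 4 of 5 pairs by 0.27 (SD 0.39), less than the spread of its pairs. MiR-129-5p, from the same hairpins, had a mean of -0.39 (SD 0.63) and was lower in 4 of 5 pairs, so miR-9 was not alone in running against the other 4. Over the 5 members the median of the mean differences was 0.57, against 0.07 over the 222 tested assays. The 2 members that were higher in all 5 pairs compare with the background of 11.7% given above.

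In 4 further neuron miRNAs, miR-132, miR-134, miR-137 and miR-218, all mean differences were above 0, with a median of 0.80, and 2 were higher in all 5 pairs. MiR-132, which follows neuronal activity, had a mean of 0.77, and miR-134, a dendritic miRNA, had 0.84. MiR-153 was determined in 1 of the 10 sorted samples and was not tested, and miR-212 was not found on the card. The 9 tested neuron miRNAs beside miR-9 thus had 8 means above 0 and 1 below, where 52.7% of the 222 tested assays were above 0. With U6 scaling all 9 means were above 0, beside 73.4% of the tested assays, and that of miR-129-5p was 0.0009.

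**Figure D2:**
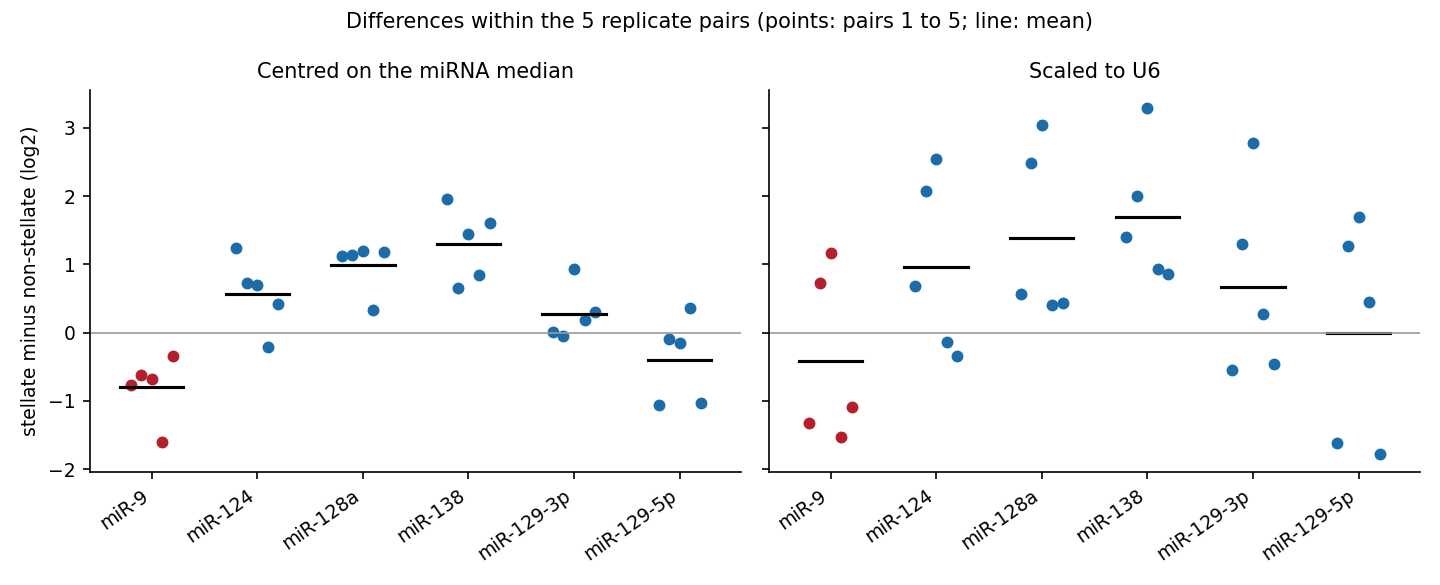
Stellate minus non-stellate difference in log2 level within each of the 5 replicate pairs (points, pairs 1 to 5 from left to right) with the mean (line) for miR-9 (red) and 5 neuron miRNAs (blue), after median centring (left) and U6 scaling (right). All 5 points of miR-9 lie below 0 on the left and 3 of 5 on the right, while miR-128a and miR-138 lie above 0 in all 5 pairs on both.

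A comparison inside a sample needs no scaling. It uses the same readings by which miR-9 was chosen against the neuron miRNAs, so the distances below are a description and not separate support. The Ct of miR-128a minus that of miR-9 was 4.95, 4.04, 4.13, 4.40 and 3.92 cycles in stellate 1 to 5. In non-stellate 1 to 5 it was 6.84, 5.80, 6.02, 6.33 and 5.44 cycles, and in tissue 3.98 and 4.18. Each stellate sample was below each non-stellate sample, and the tissue samples lay in the stellate range. The pairs differed by -1.89, -1.76, -1.88, -1.93 and -1.52 cycles, a mean of -1.80 with an SD of 0.166, so that this distance varied much less between pairs than either miRNA did.

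The Ct of miR-124 minus that of miR-9 was 7.40, 7.02, 7.20, 7.57 and 8.08 cycles in stellate 1 to 5. In non-stellate 1 to 5 it was 9.40, 8.37, 8.58, 8.96 and 8.84 cycles, and in tissue 6.82 and 7.26. The groups did not overlap here either, and the mean difference over the pairs was -1.38 (SD 0.442). For miR-138 the mean distance was 3.36 ± 1.195 cycles (SD, n = 5) for stellate cells, 5.47 ± 1.02 (SD, n = 5) for non-stellate cells and 3.15 in tissue. For miR-129-3p it was 6.92 ± 0.716 (SD, n = 5), 8.002 ± 0.310 (SD, n = 5) and 5.81, and both distances were smaller in the stellate sample in 5 of 5 pairs although the groups overlapped. For miR-129-5p it was 9.77 ± 0.914 (SD, n = 5) for stellate cells, 10.2 ± 0.881 (SD, n = 5) for non-stellate cells and 10.5 in tissue, and it was smaller in 3 of 5 pairs.

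The distance to miR-9 was smaller in stellate cells in all 5 pairs for 90 of the 221 other tested assays, a background of 40.7%, beside 4 of the 5 neuron miRNAs. Every stellate sample lay below every non-stellate sample for 20 of the 221, or 9.05%, beside 2 of the 5. It was larger in all 5 pairs for 1 assay, or 0.452%, which was miR-15a, named here after its values were seen, with a mean of 0.448 cycles. These counts use the reading of miR-9 by which it was chosen, and nothing further is read from them.

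**Figure D3:**
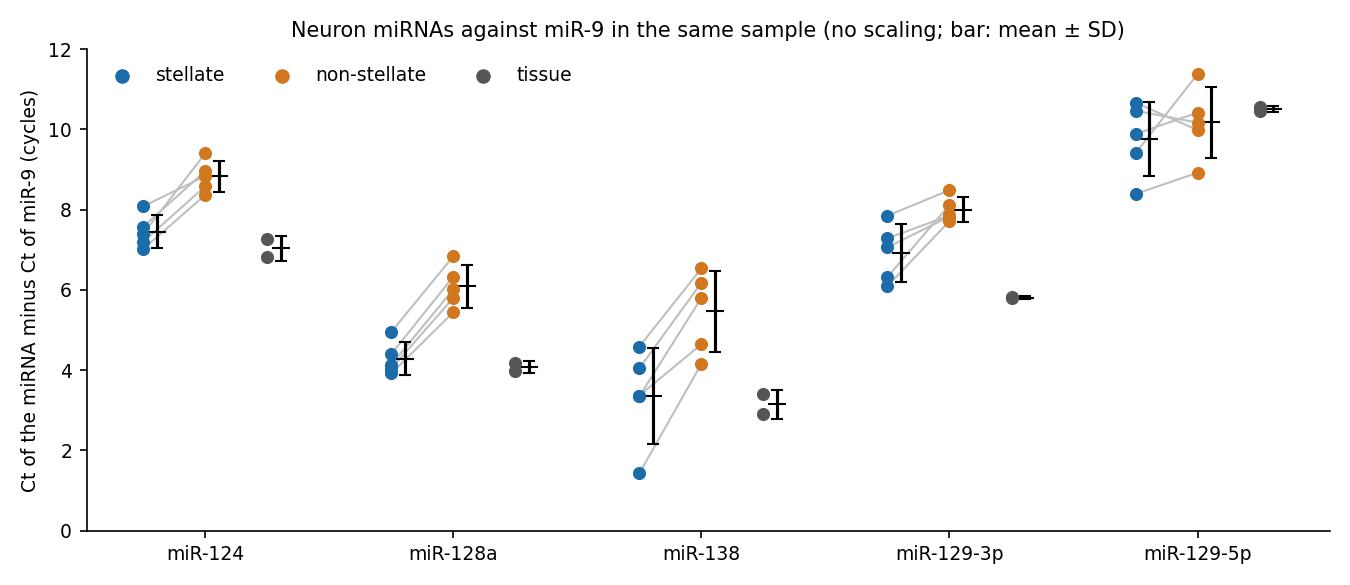
Ct of 5 neuron miRNAs minus the Ct of miR-9 in the same sample, in cycles, for stellate (blue), non-stellate (orange) and tissue (grey) samples, with grey lines between samples of the same number and bars for mean ± SD. The distance is smaller in the stellate sample in all 5 pairs for miR-124, miR-128a, miR-138 and miR-129-3p, and in 3 of 5 for miR-129-5p.

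After median centring, most miRNAs of the neural progenitor list had the sign of miR-9 rather than that of most neuron miRNAs. Whether each member of the list marks progenitors in these samples was not tested. This list, like the others used here, was chosen with earlier results of these data known. Several members share a cluster or a seed and are not independent readings, so the counts that follow are a description. Of the 8 on the card 7 had a mean difference below 0, beside 47.3% of the 222 tested assays, and 6 were lower in stellate cells in all 5 pairs, beside 12.2%. With U6 scaling 6 of 8 had a mean below 0, beside 26.6%, and 0 of 8 were lower in all 5 pairs, beside 0.901%. After median centring their median was -0.82, beside -0.80 for miR-9. MiR-106b, miR-93 and miR-25, which come from a single cluster that is active in proliferating cells, had means of -1.01, -0.97 and -0.80. MiR-17, miR-20a and miR-92a, of the related miR-17-92 cluster, had -0.85, -0.84 and -0.63. Let-7b had -0.37, at high mean levels of 6.19 in stellate and 6.55 in non-stellate samples. MiR-184 was the exception with 1.80, and it was undetermined in 2 of the 10 sorted samples.

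MiRNAs of other cell types were read as a check on what the sorted fractions held. Vascular miRNAs had means above 0 after median centring in 4 of 4 tested members, beside 52.7% of all tested assays, with a median of 1.02. MiR-143 and miR-126-3p were higher in all 5 pairs, beside 11.7%, but miR-126-5p and miR-145 were lower in 3 of 5. The study's in situ hybridization at P23 placed miR-143 in neurons as well as in some vessels. The summed median-centred level of the list was 1.25 to 4.42 in stellate and 1.17 to 2.74 in non-stellate samples, with medians of 1.81 and 1.58. Choroid plexus and ependyma miRNAs had means above 0 in 4 of 4 tested members, beside the same 52.7%, with a median of 1.06, and a summed level of 2.16 to 4.24 in stellate and 1.88 to 2.51 in non-stellate samples. Of 3 tested blood and microglia miRNAs only miR-150 was above 0, while miR-142-3p and miR-223 were each lower in 4 of 5 pairs. The study reported miR-150 as up-regulated in the labelled cells and, at a single age, in layer II. The red cell miRNA miR-451 was undetermined in all 10 sorted samples. The summed level of the list was 1.74 to 5.10 in stellate and 0.27 to 2.03 in non-stellate samples, with medians of 2.16 and 1.82. The oligodendrocyte miRNA miR-219 was undetermined in 8 of the 10 sorted samples and miR-338-3p in 7. The summed level of the neural progenitor list, 6.82 to 7.82 in stellate and 7.39 to 8.59 in non-stellate samples, moved with miR-9, and that of the neuron list, 4.56 to 6.53 and 3.37 to 4.75, moved against it. The part of other cells in the level of miR-9 was not tested.

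**Figure D4:**
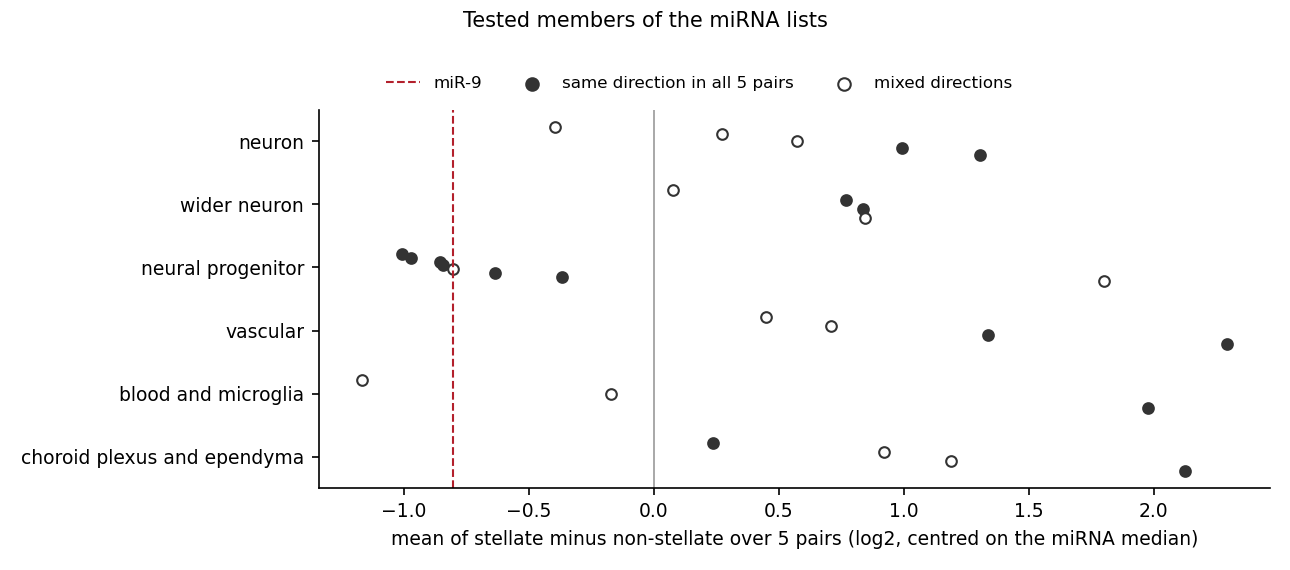
Mean stellate minus non-stellate difference in median-centred log2 level for each tested member of 6 miRNA lists, filled where all 5 pairs had the same direction and open where they did not, with the mean of miR-9 (-0.80) as a dashed line. The neural progenitor miRNAs cluster around the line of miR-9 except miR-184, while 8 of 9 neuron miRNAs and all vascular, choroid plexus and ependyma miRNAs lie above 0.

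MiR-9 was 1 of 8 assays with a mean Ct between 20 and 24 over the sorted samples. Of the other 7, 6 had a mean difference below 0 after median centring, beside 47.3% of all tested assays, and 4 were lower in all 5 pairs, beside 12.2%, and their median was -0.43. From Ct 24 upwards the medians of the bands ranged from -0.17 to 0.18. Among these 7, let-7c had -0.43, let-7e -0.39, miR-125b-5p -0.64, miR-106a -0.86 and miR-328 0.09. Let-7b had -0.37 and miR-17 -0.85, and both are also on the neural progenitor list, so this band and that list share members. Whether the reading range of the card has a part in the low value of miR-9 was not tested.

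The 5 assays with the lowest means among those lower in all 5 pairs, other than miR-9, were miR-488 with -2.35, miR-322 with -2.14, rno-miR-450a with -1.25, miR-15a with -1.25 and miR-106b with -1.01. MiR-488 rests on a difference of -7.37 in pair 3 and was undetermined in 1 sample. MiR-322 and rno-miR-450a come from the same X-linked cluster, and miR-322 carries the AGCAGCA seed of the miR-15 family. Each differed by more than miR-9 and was read later than miR-9 in both groups on average.

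Over the 10 sorted samples the median-centred level of miR-9 varied with an SD of 0.591, and 63 of 176 assays determined throughout varied less. Within groups the SD was 0.50 in stellate and 0.37 in non-stellate samples, against medians over assays of 0.667 and 0.512. MiR-9 was thus a steadier reading than the median assay in each group.

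The assays whose median-centred level most resembled that of miR-9 over the 10 sorted samples were taken from 175 by Pearson's r, which here describes points that share 2 groups, 5 pairs and the centring. They were miR-30b with 0.84, miR-93 with 0.83, miR-20a with 0.82, miR-135a with 0.81 and miR-335-5p with 0.81. After the group means were taken out, r was 0.82 for miR-30b and 0.63 to 0.66 for the other 4, so that part of the likeness lay within groups. With U6 scaling r was 0.90 to 0.93 for these 5, against a median of 0.56 over all 175, since a shared U6 reading moves all assays together. With the tissue samples included r fell to between 0.27 and 0.58.

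Of these 5, miR-93 and miR-20a share the seed AAAGUGC with miR-17 and miR-106b of the neural progenitor list, and whether assays so alike in sequence read each other's target was not tested. They are shown, with the seed in capitals, to let this likeness be seen beside miR-135a, whose seed differs, and none holds the seed of miR-9.
rno-miR-93-5p: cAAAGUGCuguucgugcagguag
rno-miR-20a-5p: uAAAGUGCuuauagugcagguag
rno-miR-17-5p: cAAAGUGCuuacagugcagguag
rno-miR-106b-5p: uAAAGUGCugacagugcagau
rno-miR-135a-5p: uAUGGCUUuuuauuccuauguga

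Least like miR-9 were miR-667 with r = -0.64, miR-449a, a miRNA of multiciliated cells, with -0.62 and miR-150, a lymphocyte miRNA, with -0.61. Each was higher in stellate cells on average, by 0.92, 2.12 and 1.98. Among the neuron miRNAs r with miR-9 was -0.02 for miR-128a, -0.15 for miR-124, -0.31 for miR-138, -0.50 for miR-129-3p and -0.04 for miR-129-5p. With the group means taken out it was 0.76 for miR-128a and 0.55 for miR-124, and 0.15, -0.22 and -0.42 for the other 3. MiR-128a and miR-124 thus varied with miR-9 among samples of a group while differing from it between groups.

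Tissue was set against the sorted cells to place miR-9 on a comparison that did not choose it. MiR-9 had a U6-scaled level of 0.61 and 0.26 in tissue A and B, above all 10 sorted samples, which ranged from -4.26 to -1.50. It was higher in tissue than in the mean of the sorted groups by 3.16 ± 0.69 (log2, SE; limma adjusted p = 0.0014 over 220 assays), and the exact two-sided permutation of the 2 tissue against the 10 sorted samples gave p = 0.0303, the smallest that its 66 arrangements allow. On this scale 139 of 220 assays were higher in tissue, a background of 63.2%, and 2 were lower, or 0.909%, namely miR-449a and miR-467b, the latter named after its values were seen. The median difference of all tested assays was 3.04, and 103 of the 220 rose more than miR-9, which thus stood near the middle of all miRNAs.

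With median centring, miR-9 in tissue, at 8.36 in both samples, lay inside the sorted range of 7.36 to 8.97. The difference was 0.17 ± 0.35 (SE; limma adjusted p = 0.711, exact two-sided permutation p = 0.788). On that scale 53 assays were higher in tissue (24.1%) and 55 lower (25%). The split of higher to lower calls was 63 to 48 with the mean of the miRNAs, 50 to 60 with quantile normalization, 89 to 42 with the 20 miRNAs of lowest Ct and 17 to 50 with Y1, so that both the rise of miR-9 and the balance of calls depend on the scaling. Age (P4/P5 against P23), sorting, RNA kit and RNA input all differ between tissue and sorted cells and cannot be told apart.

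The neuron miRNAs rose in tissue in 5 of 5 members with U6 scaling, beside 63.2% of all assays, with a median of 4.27. The differences were 4.26 for miR-124, 4.27 for miR-128a, 4.42 for miR-138, 4.81 for miR-129-3p and 2.62 for miR-129-5p (limma adjusted p from 8.3e-05 to 0.00485). The order among assays is the same with U6 scaling and with median centring. On both, 42 to 68 of the 220 assays had a larger difference than the first 4, against 103 for miR-9 and 126 for miR-129-5p. With quantile normalization the order can change: miR-9 was at 1.27 and miR-128a at 1.08, while miR-124, miR-138 and miR-129-3p stayed above miR-9. With median centring 2 of 5 passed, miR-124 with 1.27 (limma adjusted p = 0.00986) and miR-129-3p with 1.82 (limma adjusted p = 0.000173), beside 24.1% of all assays. The values of the others were 1.28 for miR-128a, 1.43 for miR-138 and -0.37 for miR-129-5p. Among the 4 further neuron miRNAs tested, 3 rose on both scales, with 5.35 for miR-132, 7.22 for miR-137 and 6.04 for miR-218 on the U6 scale, while miR-134 was at 1.02 on that scale (limma adjusted p = 0.219) and was lower in tissue with median centring, at -1.97 (limma adjusted p = 0.0152).

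The neural progenitor miRNAs, which resembled miR-9 between the sorted groups, did not resemble it here. With U6 scaling 0 of 8 passed by limma, beside 141 of the 220 tested assays. The values ran from -1.10 for miR-92a to 2.66 for miR-184, with a median of 0.37. At an unadjusted limma p under 0.05 there were 0 of 8, beside 149 of the 220. With median centring 7 of 8 fell, beside 25% of all assays, with a median of -2.62. The largest falls were -4.09 for miR-92a and -3.80 for miR-17 (limma adjusted p = 8.4e-05 for each), and miR-184 was at -0.33 (limma adjusted p = 0.889). MiR-9 lay near the middle of all assays on either scale, between the medians of the neuron and the neural progenitor lists. Among the neuron miRNAs, miR-129-5p lay below miR-9, with 126 assays above it against 103. MiR-134, of the further neuron miRNAs, lay lower still, with 169.

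**Figure D5:**
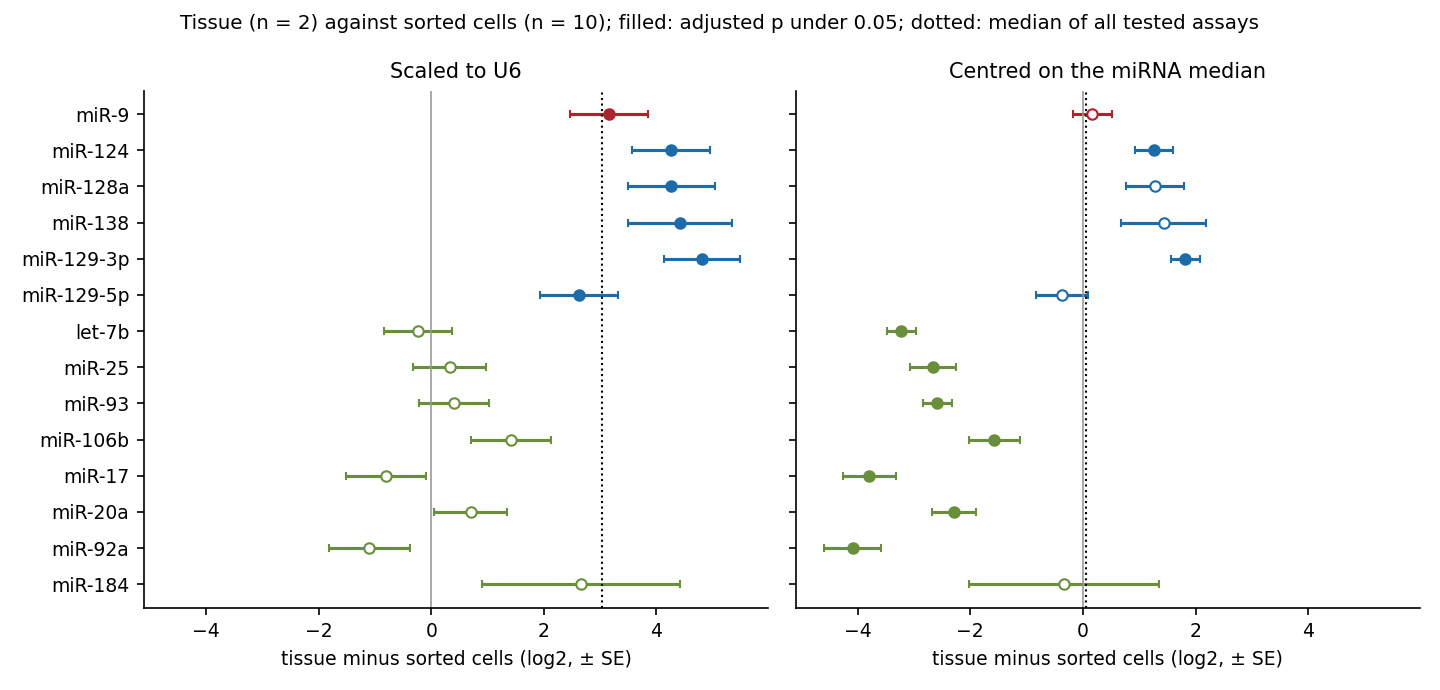
Tissue (n = 2) minus the mean of the sorted groups (n = 10) in log2 with its standard error for miR-9 (red), 5 neuron miRNAs (blue) and 8 neural progenitor miRNAs (green), with U6 scaling (left) and median centring (right), filled where the limma adjusted p was under 0.05. The dotted line is the median of the 220 tested assays, 3.04 on the left and 0.05 on the right, and miR-9 lies next to it on both.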

How the data were processed

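MiRNAs were measured in 12 samples on a TaqMan rodent A card, following multiplexed reverse transcription and pre-amplification with Megaplex primers. The authors read Ct with the ViiA7 software; the deposited raw table holds Ct, a log2 scale, with 40 in undetermined wells. The deposited normalized table is also log2 and equals Ct minus the mean of the 4 U6 wells (largest difference 7.1e-15). The authors' deposited fold-change ratios, p-values and limma scores were not used. Groups came from the labels, and miR-9 and the lists were chosen with earlier results of these data known.

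An assay was tested when undetermined in at most 3 of the samples fitted (220 assays with tissue, 222 without), and miR-9 was determined in all. Tissue was compared with the mean of the sorted groups by limma 3.58.1 in R 4.3.3 (two-sided, Benjamini-Hochberg over the table, threshold 0.05) on all 12 samples, as the methods scale to U6 and use limma. Undetermined wells entered as 40. The contrast of stellate and non-stellate cells, on which miR-9 was chosen, was fitted only for its count. Named miRNAs were miR-9, list members, the 5 most and 3 least correlated assays and the 5 lowest of those lower in all 5 pairs. The series' design text describes labelled and unlabelled cells from 5 biological replicates, so numbers were read as pairs; deviations from group means correlated within pairs 1 to 5 at 0.331, 0.119, 0.256, 0.155 and 0.0743, against -0.0481 between numbers. The labels call the samples biological replicates without naming the animals, and p-values measure the spread between these samples. No molecule count exists for such cards, and wells were single, so precision is known only from U6. The limma fit was tried on simulated data with large planted changes and independent noise. Shared scaling error was not simulated, so this does not bear on small differences or on the choice of scale. Alternatives changed the scaling, the undetermined wells, the assay filter, the block, the moderation and the samples.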

Additional observations from a re-analysis of the deposited data

How the results depend on the processing

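Stellate minus non-stellate, the mean difference of miR-9 was -0.80 after median centring and kept its sign under 23 of 26 alternatives. Of the 26, 15 only left out 1 sample or pair on the same scale. The replicate block gives the same mean by construction, so the tally says little about the choice of scale. The mean difference was smaller with U6 (-0.41), U87 (-0.42), snoRNA135 (-0.31) and Y1 (-0.10) and changed sign with snoRNA202 (0.38), raw Ct (0.41) and quantile normalization (2.6). Quantile normalization places miR-9 second in the 4 non-stellate samples where a single early well precedes it, which by construction gives it the value of the second rank there. Leaving out 1 sample or pair gave -1.003 to -0.60, and leaving out both pairs 3 and 5, whose non-stellate samples have a conflicting description, gave -0.997. That alternative, the 20 miRNAs of lowest Ct and the recounts below were chosen after seeing the data. The 27 assays lower in all 5 pairs were 2 with U6 scaling, miR-98 and miR-322, with 24 higher, and 56 were lower in the 3 pairs left without pairs 3 and 5. Of the neural progenitor list 6 were lower in all 5 pairs after median centring and 0 with U6 scaling. MiR-129-5p, -0.39 after median centring, was at 0.0009 with U6, 0.10 with snoRNA135, 0.79 with snoRNA202, 0.31 with Y1 and 0.82 on raw Ct. By limma 0 of 222 assays passed between the sorted groups (0%), and 0 passed under all 12 alternatives. At an unadjusted p under 0.05 there were 16, and 48 with median centring and the replicate block. The study, which filtered out undetermined and unreliable wells, reported several miRNAs as up-regulated in the labelled cells, miR-143 and miR-150 among them. It reported no miRNA, and so not miR-9, as down-regulated in them.

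Tissue minus sorted cells, miR-9 at 3.16 stayed past the threshold under 27 of 33 alternatives. Of the 33, 12 left out 1 sample with U6 scaling kept and gave 2.94 to 3.33, so the tally says little about the scaling. The difference of miR-9 was 0.48 with the global mean (limma adjusted p = 0.253), 1.27 with quantile normalization (limma adjusted p = 0.155), 0.17 with median centring, in the permutation of centred levels and in the replicate block with median centring (limma adjusted p = 0.717), and -0.35 with Y1 (limma adjusted p = 0.678). The replicate block, which treats equal numbers as pairs, gave 3.16 (limma adjusted p = 0.00146, 140 assays passing against 141) and changed no call on miR-9. MiR-129-5p, at 2.62, was -0.37 with median centring, also in the replicate block, -0.055 with the global mean, -0.88 with Y1 and -0.50 with quantile normalization. The count of 141 assays fell to 67 with Y1 and ranged from 96 to 146 without 1 sample, the lowest without tissue A, where miR-129-5p no longer passed (limma adjusted p = 0.0676).

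The tissue group holds 2 samples, each miRNA was read in a single well, and 0.518 cycles is 1 SD of a difference between wells, so that 4 of the 5 pair differences of miR-9 lie within 2 SDs (1.04).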
